A study of Mus musculus with 70 samples.

Results

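The nucleus accumbens (ACB) was sampled in 3 of the 70 mouse libraries of the series, chosen here by their region label. They were compared with 54 libraries of 17 other adult brain regions, with every region given the same weight whatever its number of libraries. The study sequenced messenger RNA from tissue punches of brain regions involved in energy balance and of several other regions, and 57 of its libraries came from adults. All adult libraries came from untreated male C57BL/6NTac mice at postnatal day 56, and most samples pooled the punches of several mice. The adult samples were prepared in 5 batches, and the batches listed for each region were matched here to its libraries by the order of the numbers in the labels. By this match, ACB replicates 1, 2 and 3 belong to batches 2, 3 and 4, and replicate 1 came from a lone mouse.

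The other adult regions were 3 cortical areas, 5 hypothalamic regions, 5 parts of the cerebellum and 4 regions of the midbrain and hindbrain. The cortical areas were the anterior cingulate area (ACA), the frontal pole (FRP) and the entorhinal area (ENT). The hypothalamic regions were the arcuate (ARH), dorsomedial (DMH), ventromedial (VMH) and paraventricular (PVH) nuclei and the lateral area (LHA). The cerebellar ones were the cerebellar nuclei (CBN), the flocculus (FL), the uvula (UVU), the culmen (CUL4-5) and central lobule II (CENT2). The remaining regions were the ventral tegmental area (VTA), the parabrachial nucleus (PB), the nucleus of the solitary tract (NTS) and the dorsal vagal complex (DVC). Among these 17 regions 2 had 2 libraries, 10 had 3 and 5 had 4. The other 13 libraries, 9 embryonic and 4 from stem cells, were not compared.

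Levels are given as TPM, a share of all transcripts of a library that is corrected for transcript length. The ACB libraries held 16047303, 18879106 and 19536018 estimated counts, within the range of 13409041 to 20647884 in the other adult libraries. Of 34677 genes in the table, 19084 had at least 1 TPM in at least 2 adult libraries and were tested. Fold changes are on the log2 scale of TPM + 0.5, which understates the difference for genes with low levels. A gene was called higher or lower at an adjusted p under 0.05 in limma, a linear model fitted to all genes, with a log2 fold change beyond 1 in size. These p-values measure the spread between pooled samples, not between mice. Libraries of different regions share mice, since punches of several regions came from the same animals, and the fit treats the libraries as independent.

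The nucleus accumbens is the ventral part of the striatum and a target of the dopamine neurons of the midbrain, and it is known for its role in reward, motivation and the drive to eat. Most of its neurons are medium spiny neurons, which release the inhibitory transmitter GABA. They fall into a class with the dopamine receptor Drd1 and the peptides dynorphin and substance P, and a class with the dopamine receptor Drd2, the adenosine receptor Adora2a and the peptide enkephalin. In these cells the receptors raise or lower cyclic AMP through a set of G proteins, adenylyl cyclases, phosphodiesterases and phosphatases that the striatum uses more than other brain regions.

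The ACB label was checked against the receptors Drd1, Drd2 and Adora2a, which mark medium spiny neurons, and all 3 were far higher in ACB than in the average adult region. Drd1, at chr13:54051183-54055705 on the minus strand of GRCm38, stood at 157, 140.5 and 119 TPM in ACB replicates 1, 2 and 3, the order used for all triplets of values that follow. The 54 other adult libraries ran from 0.03696 to 9.93, with a median of 1.06 TPM. Every ACB library was thus far above every other one, and the nearest region was the entorhinal area with 9.24 ± 0.864 TPM (mean ± SD, n = 3). Drd2, at chr9:49340627-49408177 on the plus strand, stood at 159, 155 and 122 TPM against 0.187 to 93.8 TPM (median 6.71 TPM) elsewhere. Here the groups again did not overlap, but the VTA, whose dopamine neurons carry this receptor themselves, came nearest with 80.1 ± 15.8 TPM (n = 3). Adora2a, at chr10:75316877-75334784, had 236, 194 and 182 TPM in ACB, and no other adult library passed 3.699 TPM. Its level was low in each of the other regions, with means of at most 3.21 TPM. The log2 fold changes against the mean of the 17 regions were 6.14 ± 0.17 (SE) for Drd1, 4.63 ± 0.34 for Drd2 and 6.37 ± 0.21 for Adora2a, with limma adjusted p of 1.87e-29, 4.01e-15 and 6.95e-27. In bulk tissue such a difference can come from more cells of a type or from more RNA per cell, and these cannot be told apart.

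**Figure D1:**
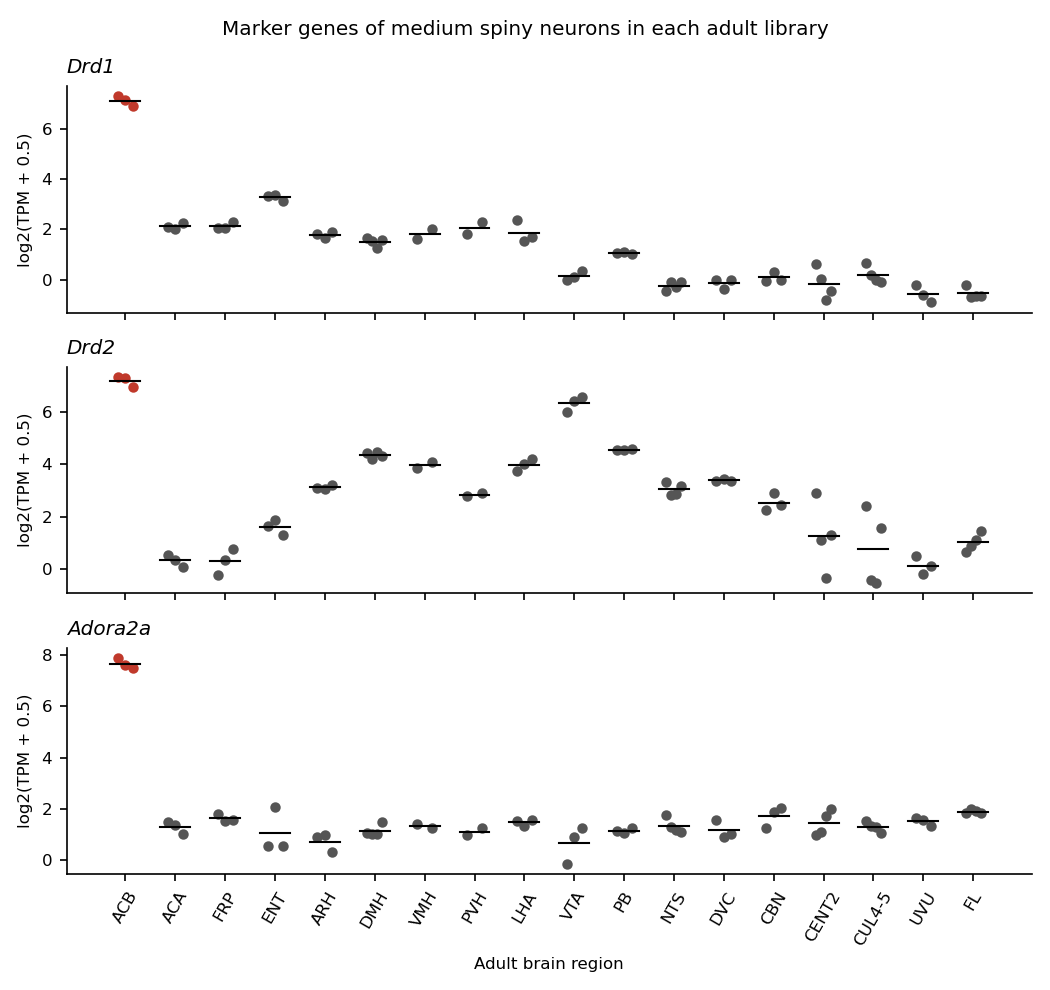
Level of Drd1, Drd2 and Adora2a as log2(TPM + 0.5) in each of the 57 adult libraries, by region, with 1 point per library and a bar at the region mean. The 3 ACB libraries (red) lie above every other library for each gene, and the VTA is the nearest region only for Drd2.

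The ACB libraries were not alike in every respect, and the differences bear on the results that follow. The main vesicular glutamate transporter of cortical neurons, Slc17a7, stood at 23.9, 263 and 297 TPM, and the 16 cortical glutamatergic marker genes summed to 304, 611 and 638 TPM. Replicate 1, the library of the lone mouse, was thus the low one in both, while replicates 2 and 3 were alike. Other libraries ran from 87.9 TPM for this sum in VTA replicate 1 to 2454 TPM in ACA replicate 2. The 18 immediate early genes, which neurons switch on when active, summed to 758, 1393 and 688 TPM, so that here replicate 2 was the high one. Mitochondrially encoded genes took 8.33%, 6.91% and 6.46% of TPM, beside a median of 7.71% in the other adult libraries. Among the other regions, VTA replicate 1 stood apart with 39.6%. Across genes, the ACB libraries correlated at r = 0.974 to 0.979 with each other, against 0.924 to 0.979 for the 62 pairs of libraries within other regions, a description in which genes are not independent. Divided by its degrees of freedom, the chi-square between the counts of a pair of ACB libraries was 9.5 to 15.2, more than chance in counting gives, so no library was a copy of another.

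In the comparison with the 17 regions, 1022 genes were higher in ACB (5.36% of those tested) and 827 were lower (4.33%). The median log2 fold change over all genes tested was 0.005. Among the genes called higher, 349 (1.83% of all tested) had all 3 ACB libraries above all 54 other adult libraries, while 70 of those called lower (0.367% of all tested) had all 3 below. The strictest comparison asked whether ACB was above each of the 17 regions taken singly, by limma and with the smallest of the 17 log2 fold changes above 1, and 114 genes (0.597%) met it. For genes of this group the median log2 fold change against the mean of the regions was 2.93, and 111 of the 114 were also above every other library. Together they took 1.83%, 1.79% and 1.44% of all TPM in the ACB libraries, against a median of 0.192% and at most 0.343% in the others. Higher by more than 3 on the log2 scale were 104 genes, and 21 were lower by more than 3, although the 0.5 added to TPM limits how negative a log2 fold change can be. The excess of genes called higher depended on the processing, since DESeq2 called 1210 genes higher and 1200 lower.

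With batch as a term in the fit, an alternative added after seeing the data, 1037 genes were higher, 811 lower and 116 above each of the 17 regions, including all 114. Compared only with libraries of its own batch, each ACB library was above their mean for 989 of the 1022 genes called higher and below it for 823 of the 827 called lower. These genes were chosen by the same libraries, so the counts are a description and no test of batch. In the same comparisons the log2 differences of Drd1 were 6.40 in batch 2, 6.31 in batch 3 and 5.82 in batch 4, those of Drd2 were 4.57, 5.02 and 4.599, and those of Adora2a were 6.55, 6.28 and 6.17.

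With ACB replicate 1 as the only ACB library, a choice made after seeing the data that assumes this library to vary like those of the other regions, 1069 genes were higher and 798 lower, and 95 were above each of the 17 regions, 75 of them among the 114. Counts of complete separation depend by construction on how many libraries must separate, and with that library alone they were 618 above and 222 below every other library. The count below every other library was 117 without ACB replicate 3, and also 117 without VTA replicate 1, where 1000 genes were higher and 856 lower. With 2 groups in the fit, where all other adult libraries share 1 mean and differences between regions count as noise, 630 genes were higher and 290 lower.

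The regions closest to ACB in these genes were most often cortical. Of the 1022 genes called higher, 536 had their smallest difference, among the 17 regions, against 1 of the 3 cortical areas. Another 262 had it against 1 of the 5 hypothalamic regions and 171 against 1 of the 5 parts of the cerebellum. Within the hypothalamus ARH was nearest for 123 of these genes, but DMH for 13 and LHA for 11. For the 114 genes above each region the counts for cortex, hypothalamus and cerebellum were 47, 39 and 22, with ENT (22 genes) and ARH (18 genes) named most often. Over all genes tested, the ACB mean correlated best with FRP (r = 0.966), ENT (0.965) and ACA (0.959) and least with CUL4-5 and UVU (0.913 each). Without the 3 cortical regions, 300 genes stood above each of the remaining regions, 678 above every remaining library and 234 below every one.

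**Figure D2:**
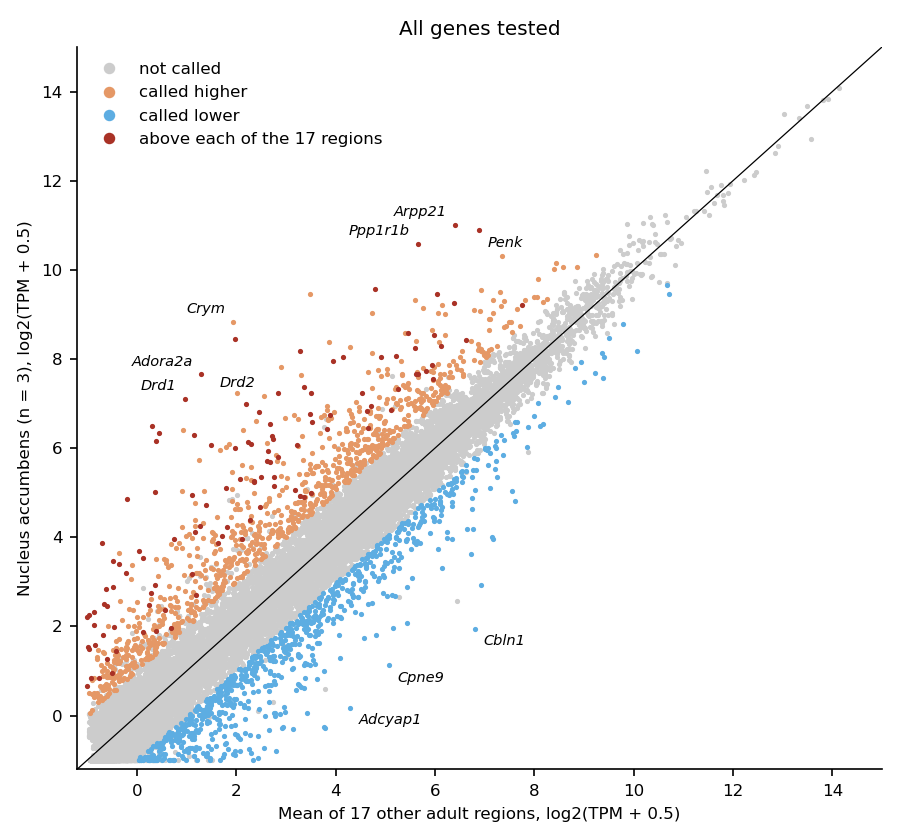
Mean log2(TPM + 0.5) of the 3 ACB libraries (vertical) against the equally weighted mean of the 17 other adult regions (horizontal) for the 19084 genes tested, 1 point per gene, with the line of equality. Genes called higher (1022, orange), called lower (827, blue) and above each of the 17 regions (114, dark red) are coloured.

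The 15 genes with the largest excess among those above every other library included Drd1 and Adora2a, and Crym led the group. It encodes a thyroid hormone binding protein. Crym had 477, 466 and 430.4 TPM in ACB and 0 to 262 TPM (median 1.15 TPM) in the other libraries. Its range outside ACB was wide: the 3 cortical areas were high, with 187 ± 72.4 TPM in ENT (n = 3), and the cerebellum was near 0. By the stricter test Crym was not above each region. Gpr6, an orphan receptor, which raises cyclic AMP without a known ligand, stood at 82.8, 92.9 and 67.7 TPM against at most 7.55 TPM. It separated the groups by a wide margin, with ARH next. The log2 fold changes were 6.90 ± 0.30 (SE) for Crym and 5.89 ± 0.18 for Gpr6 (limma adjusted p of 1.06e-22 and 1.89e-28).

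Several genes of this group are better known from other tissues. Cd4, the coreceptor of helper T cells, which brain macrophages can also express, had 36.3, 29.5 and 21.4 TPM in ACB and at most 1.59 TPM in any other adult library. Serpina9, of a family of protease inhibitors, had 71.2, 77.2 and 65.3 TPM against at most 9.78 TPM, reached in CBN replicate 3. Krt9, a keratin, had 34.4, 31.4 and 29.3 TPM against at most 8.46 TPM in FL replicate 4. For each of the 3 genes the ACB libraries were far above the rest, and the log2 fold changes were 5.05, 5.78 and 4.65. The 12 microglial markers, by comparison, summed to 532, 518 and 502 TPM in ACB and to at most 505 TPM elsewhere. A single other library, ENT replicate 2, passed the lowest of these sums, and the other 53 lay below all 3. The part of microglia in the level of Cd4 was not tested. Ankrd63 (102, 87.6 and 80.2 TPM) and Lrrc10b (85.5, 98.1 and 56.7 TPM), genes of little known function, were higher by 6.18 and 5.15.

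**Figure D3:**
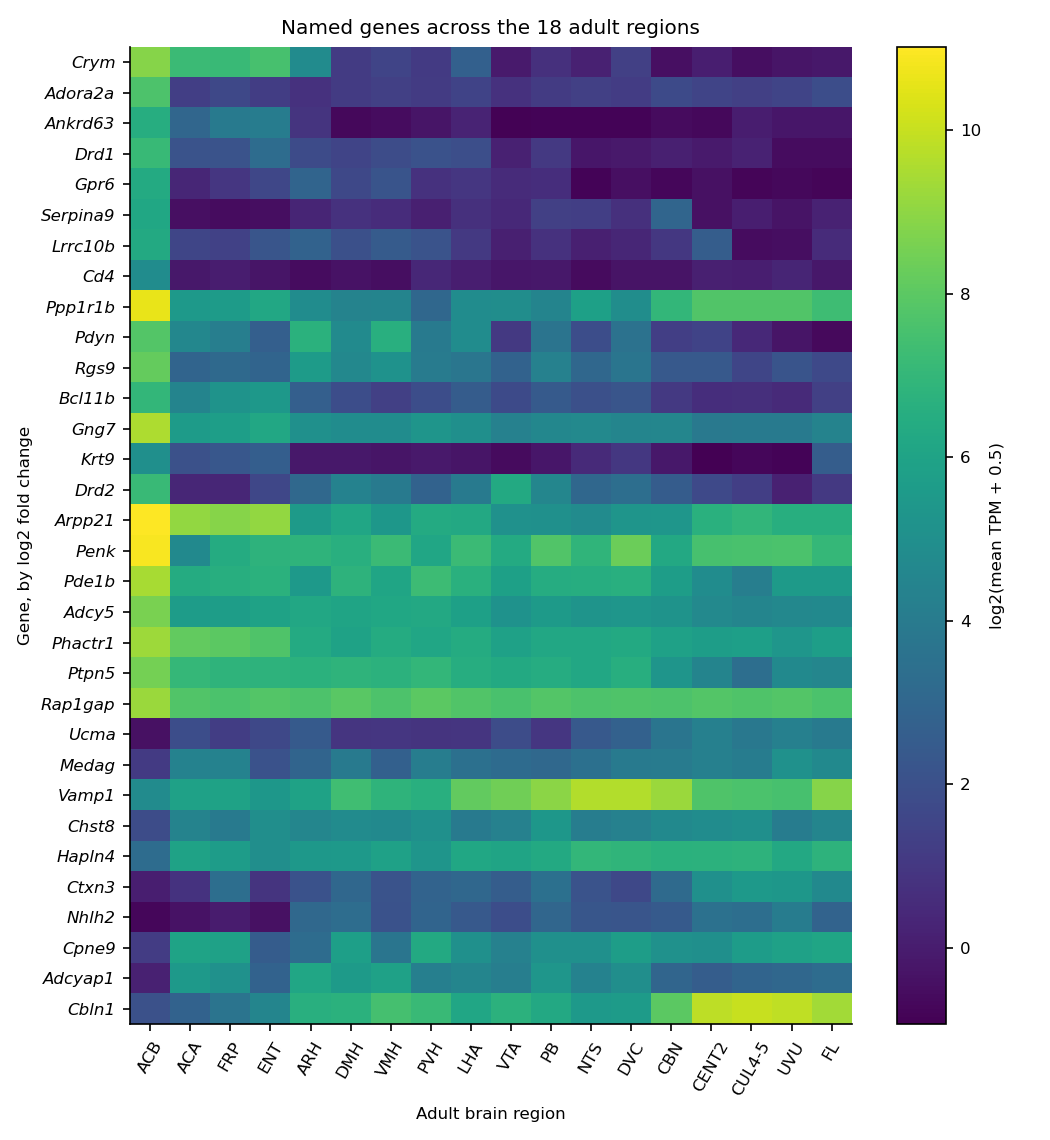
Region means, as log2(mean TPM + 0.5), of genes named by the rules on fold change, level and marker genes, in ACB (first column) and the 17 other adult regions. Genes are ordered by log2 fold change from Crym (6.90) to Cbln1 (-4.85), and the ACB mean is the highest of the 18 regions for the genes above Ucma and the lowest for Ucma and the genes below it.

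Among the lists of striatal genes, that of signalling enzymes and scaffolds, many of them in the response to dopamine and cyclic AMP, had the largest share called higher, while the pathway lists described below had larger medians. Of its 27 genes, 25 were higher in ACB (92.6%, against 5.36% of all genes tested) and 15 stood above each of the 17 regions. The median log2 fold change was 2.54, beside 0.005 over all genes tested. The limma calls of every list that follows stand beside the same shares of all genes tested, 5.36% higher and 4.33% lower. These shares do not apply to counts from edgeR, from DESeq2 or at an unadjusted p. Over all genes edgeR called 1297 of 17351 higher and 1093 lower, and DESeq2 called 1210 of 17348 higher and 1200 lower. Much of the signalling list was also abundant. Arpp21, a phosphoprotein regulated by cyclic AMP, had 2162, 2277 and 1786 TPM, and the other libraries ran from 19.4 to 584, with a median of 79.6 TPM. Ppp1r1b, which turns into an inhibitor of protein phosphatase when dopamine raises cyclic AMP, had 1722, 1637 and 1298 TPM against 7.15 to 257 TPM (median 44.6 TPM) elsewhere. Both were far above every other library, although the cortex (for Arpp21) and the cerebellum (for Ppp1r1b, up to 219.7 ± 25.5 TPM in CUL4-5, n = 4) also had sizeable levels. The G protein gamma subunit Gng7 (833, 762 and 683 TPM) and the alpha subunit Gnal (346, 300.5 and 294 TPM), which couple Drd1 and Adora2a to the cyclase, did not pass 81.4 and 106 TPM in other libraries. Adcy5, the main adenylyl cyclase of the striatum, had 441, 399 and 319 TPM against at most 82.6 TPM in PVH replicate 2. Each of these steps from receptor to cyclic AMP was thus higher, by log2 fold changes of 4.77 for Gng7, 2.17 for Gnal and 3.12 for Adcy5.

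Several listed enzymes that break cyclic nucleotides down, and some listed proteins that end receptor signals, were called higher too. Pde10a, a phosphodiesterase concentrated in medium spiny neurons, had 302, 276 and 216 TPM, and the other libraries ran from 9.18 to 32.4, with a median of 17.1 TPM. Pde1b, which calcium activates, had 796, 754 and 581 TPM against at most 158 TPM. Neither overlapped with any other library, and the limma adjusted p for Pde10a, with a log2 fold change of 3.88 ± 0.10 (SE), was 7.08e-30. Pde7b (3.07), Pde2a (2.78) and Pde4b (1.24) were higher too, with the log2 fold changes given. Rgs9, which speeds the end of G protein signals at dopamine receptors, had 323, 305 and 245 TPM against at most 52.3 TPM in ARH replicate 1. Among its relatives on the list, Rgs2 was called higher (2.00). Rgs4, at 177, 162 and 142 TPM, was called higher against the mean of the regions but was lower than in ACA (399 ± 9.71 TPM). Rgs8 (0.60) was not called. Ptpn5, the striatal-enriched tyrosine phosphatase, had 398, 385 and 329 TPM, Rasd2, a small G protein, 319, 277 and 211 TPM, and Dgkb, a lipid kinase, 179.5, 141 and 137 TPM. All 3 were above each of the 17 regions. Camkk2 (0.95) was the other member not called.

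Further abundant genes above each region lay outside the lists. Phactr1, a regulator of actin and protein phosphatase, had 595, 667 and 584 TPM against at most 309 TPM in ACA replicate 1, and Rap1gap, which switches off the small G protein Rap, had 606, 622 and 545 TPM against at most 289 TPM. Rap1gap was present in all regions, with a median of 216 TPM outside ACB, and its log2 fold change of 1.46 was the smallest among the 10 most abundant genes of the 114.

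Among the receptors listed for medium spiny neurons, 17 of 23 tested were higher in ACB (73.9%), and the median log2 fold change was 1.87. Gpr52, also on the list, was not in the table. Among the dopamine receptors, Drd3, a hallmark of the ventral striatum, had 8.12, 6.99 and 5.66 TPM, and other libraries reached at most 1.32 TPM. Drd4 (0.165, 0.0732 and 0.133 TPM) and Drd5 (2.399, 2.64 and 2.46 TPM) lay within the range of the other regions. The family thus divided into 3 members that set ACB apart and 2 that did not. The muscarinic receptor Chrm4, which opposes Drd1, had 66.8, 72.2 and 53.9 TPM against at most 27.2 TPM, whereas Chrm1, at 98.5, 99.1 and 95.9 TPM, was as high in cortex (123 ± 3.13 TPM in ACA). The serotonin receptor Htr1b had 41.5, 37.5 and 22.4 TPM against at most 18.8 TPM, and it was above each region. Htr2c (64.9, 58.8 and 62.96 TPM), Htr4 (3.905, 1.65 and 2.502 TPM) and the histamine receptor Hrh3 (108, 176 and 108 TPM) were called higher while at least 1 other region had similar levels. Adora1 and Cnr1, with log2 fold changes of 0.13 and -0.58, were not called.

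The markers of the classes of medium spiny neurons were high for both. Of the direct pathway genes, which go with Drd1, 6 of 9 were higher, with a median of 3.85, and of the indirect pathway genes, which go with Drd2, 5 of 7 were higher, with a median of 4.00. Tac1, the precursor of substance P, had 454, 660.1 and 484 TPM against at most 306 TPM in ARH replicate 3. Slc35d3, a protein needed to bring Drd1 to the cell surface, had 30.5, 39.3 and 23.6 TPM against at most 8.35 TPM. Both separated ACB from the other libraries, and Slc35d3 was above each region. Isl1, a transcription factor of direct pathway neurons, had 20.9, 20.4 and 19.6 TPM, below its 55.4 ± 4.58 TPM in ARH. Sp9, its counterpart for indirect pathway neurons, had 12.3, 9.82 and 10.2 TPM, and 2 other libraries reached the lowest of these values. Eya1, Sfxn1, Ebf1, Ptprm and Grik3 were not called, with log2 fold changes of 0.52, 0.27, 0.10, 0.04 and 0.89.

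Each class also has its own opioid peptide, and both peptides were high. Penk, the enkephalin precursor, had 2010, 2193 and 1540 TPM, and the other libraries ran from 24.1 to 384, with a median of 122 TPM. Pdyn, the dynorphin precursor, had 199.6, 284 and 201 TPM against 0 to 107 TPM (median 6.49 TPM). Penk was above each region, with DVC next, while Pdyn was only 2.17 times its level in ARH (105 ± 1.33 TPM, n = 3). The precursors Pomc and Pnoc differed from these: Pomc, at 3.46, 4.08 and 2.67 TPM, was not called, and Pnoc, at 2.51, 2.398 and 4.16 TPM, was lower, with a log2 fold change of -1.43. The receptors Oprm1 (18.4, 13.9 and 9.76 TPM), Oprd1 (12.5, 11.8 and 7.599 TPM) and Oprk1 (25.9, 28.1 and 19.8 TPM) were higher than the average region, by 1.83, 1.56 and 2.66, but each had a peer, PVH for Oprm1, ACA for Oprd1 and VMH for Oprk1. In all, 5 of 8 opioid genes were higher and 1 was lower, with a median of 1.69.

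Of the striatal transcription factors tested, 20 of 27 were higher, with a median log2 fold change of 2.16. Bcl11b, which medium spiny neurons need to mature, had 134, 133 and 114 TPM, and the other libraries ran from 0.4705 to 47.2, with a median of 3.27 TPM. Foxp1 had 167, 193 and 134 TPM against at most 88.2 TPM, and Foxp2, linked to speech in humans, had 43.5, 42.2 and 40.4 TPM against at most 21.9 TPM. All of these separated ACB from the other libraries, with cortex next for Bcl11b and Foxp1. Dlx6, of a homeobox family that directs the birth of forebrain GABA neurons, had 74.99, 63.5 and 62.2 TPM against at most 26.1 TPM and was above each region. Its relatives Dlx1 (24.01, 49.1 and 52.2 TPM), Dlx2 (9.39, 17.04 and 14.1 TPM) and Dlx5 (35.5, 35.1 and 27.7 TPM) were called higher but overlapped with FRP or hypothalamic libraries. Meis2 (637, 672 and 621 TPM) was the most abundant of the list and Foxo1 (39.98, 46.2 and 35.9 TPM) was above each region. Meis1 (-0.93), Zfp521 (-0.50) and Ikzf2 (-0.47) had negative log2 fold changes and were not called by limma, while edgeR and DESeq2 called Meis1 lower (-1.02 and -1.03).

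Retinoic acid is a vitamin A derivative that acts through nuclear receptors, and striatal neurons are known to respond to it. Rarb, a retinoic acid receptor whose gene is itself a classic target of the hormone, had 123, 128 and 90.05 TPM in ACB and 0.857 to 9.73 TPM (median 4.97 TPM) in the other libraries. Rxrg, a partner receptor, had 79.1, 115 and 87.1 TPM against at most 35.9 TPM in ARH replicate 2. These 2 receptors were above each of the 17 regions, with log2 fold changes of 4.36 ± 0.23 (SE) and 3.87 ± 0.20 and limma adjusted p of 4.05e-20 and 4.3e-20, while Rara, Rarg, Rxra and Rxrb were not called. The retinol receptor Stra6 (13.1, 23.9 and 20.7 TPM) and the binding protein Crabp1 (18.6, 11.8 and 15.9 TPM) were higher. The dehydrogenases that make retinoic acid, Aldh1a1 (16.7, 16.5 and 12.2 TPM) and Aldh1a2 (0.607, 0.552 and 0.799 TPM), were lower, with log2 fold changes of -3.22 and -1.73, and so was Cyp26b1, which degrades it (-2.03). The binding protein Crabp2 (-0.44) and the dehydrogenases Rdh10 (0.75) and Aldh1a3 (-0.79) were not called. In all, 6 of 17 genes of the pathway were higher and 3 were lower, with a median of 0.36.

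The promoters of Rarb, Drd1 and Drd2 are shown, each 300 bases from RefSeq on GRCm38.p6. The Rarb promoter lies on the minus strand at chr14:16575427-16575726, that of Drd1 (1 of its 2 starts) on the minus strand at chr13:54054731-54055030 and that of Drd2 on the plus strand at chr9:49340153-49340452. Capitals mark, in Rarb, a direct repeat of the kind that retinoic acid receptors bind, and in the other promoters the GC box GGGGCGGGG, a pattern that Sp proteins bind.
Rarb: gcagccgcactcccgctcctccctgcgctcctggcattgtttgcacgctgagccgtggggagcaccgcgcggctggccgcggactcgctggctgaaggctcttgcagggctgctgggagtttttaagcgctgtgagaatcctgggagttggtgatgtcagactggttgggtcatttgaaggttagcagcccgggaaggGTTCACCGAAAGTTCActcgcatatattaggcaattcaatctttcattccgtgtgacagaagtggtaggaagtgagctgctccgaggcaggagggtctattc
Drd1: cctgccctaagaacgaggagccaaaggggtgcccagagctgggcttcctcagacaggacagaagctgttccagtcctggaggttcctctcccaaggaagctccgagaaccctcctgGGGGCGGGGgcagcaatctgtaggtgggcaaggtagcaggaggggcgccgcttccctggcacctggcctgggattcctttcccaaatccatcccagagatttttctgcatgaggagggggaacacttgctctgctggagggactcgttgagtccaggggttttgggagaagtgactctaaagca
Drd2: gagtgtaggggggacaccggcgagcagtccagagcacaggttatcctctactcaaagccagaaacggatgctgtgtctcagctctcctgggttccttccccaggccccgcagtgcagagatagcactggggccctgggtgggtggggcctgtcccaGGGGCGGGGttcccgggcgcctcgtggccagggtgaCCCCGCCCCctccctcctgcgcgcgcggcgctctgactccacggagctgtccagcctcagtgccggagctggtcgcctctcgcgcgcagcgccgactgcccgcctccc
Both strands were searched in 32851 promoters of the same length. The repeat was found in 283 of them (0.861%), and the GC box in 3760 (11.4%). Of the 114 genes above each region, 85 matched by symbol, with 121 promoters, of which 1, that of Rarb, held the repeat and 25 (20.7%), from 23 genes, held the GC box. A match describes the letters in this window and does not show binding.

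Ion channels that shape the silent resting state and slow firing of medium spiny neurons were higher for 14 of 22 genes and lower for 4, with a median of 1.79. Kcnj2, of the inward rectifiers that hold these neurons near rest, had 21.6, 20.04 and 14.2 TPM against at most 6.08 TPM elsewhere. Kcnj4, of the same family, had 152, 166 and 138 TPM and was as high in FRP (152 ± 22.2 TPM). Kcnj2 therefore separated the groups and Kcnj4 did not, though its log2 fold change of 5.23 was the largest of the list. The A-type potassium channel Kcna4 (43.97, 32.8 and 29.6 TPM) and the channel partner Kcnip2 (298, 238 and 216 TPM) were above each region. The sodium channel subunit Scn4b, at 338, 299.8 and 221 TPM, was above all other libraries, with NTS next at 160.1 ± 27.9 TPM (n = 4). The lower members included Kcnj3 (-1.33) and Kcnj6 (-1.10), which G proteins open.

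Genes known from the ventral part of the striatum were higher for 9 of 12, with a median of 1.92, although several of them also mark the hypothalamus. Wfs1, a protein of the endoplasmic reticulum, had 368, 304 and 254 TPM against at most 137 TPM in ENT replicate 2. Lypd1, a modulator of nicotinic receptors, had 131, 158 and 196 TPM against at most 95.4 TPM. These separated ACB from all other libraries, as did Drd3 and Crym. The peptide Cartpt, which dampens feeding, had 67.4, 162 and 138 TPM, but VMH reached 314 ± 28.4 TPM, and Nts, the neurotensin precursor, had 25.1, 31.6 and 35.3 TPM with LHA at 58.1 ± 10.2 TPM. Peg10 (96.5, 26.8 and 70.7 TPM) and Calcr (6.99, 0.508 and 4.98 TPM) were not called by limma while edgeR and DESeq2 called both higher, and replicate 2 was the low one for both. Calb2, the calcium binding protein calretinin, was lower, at 24.6, 27.9 and 48.1 TPM against a median of 243 TPM.

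**Figure D4:**
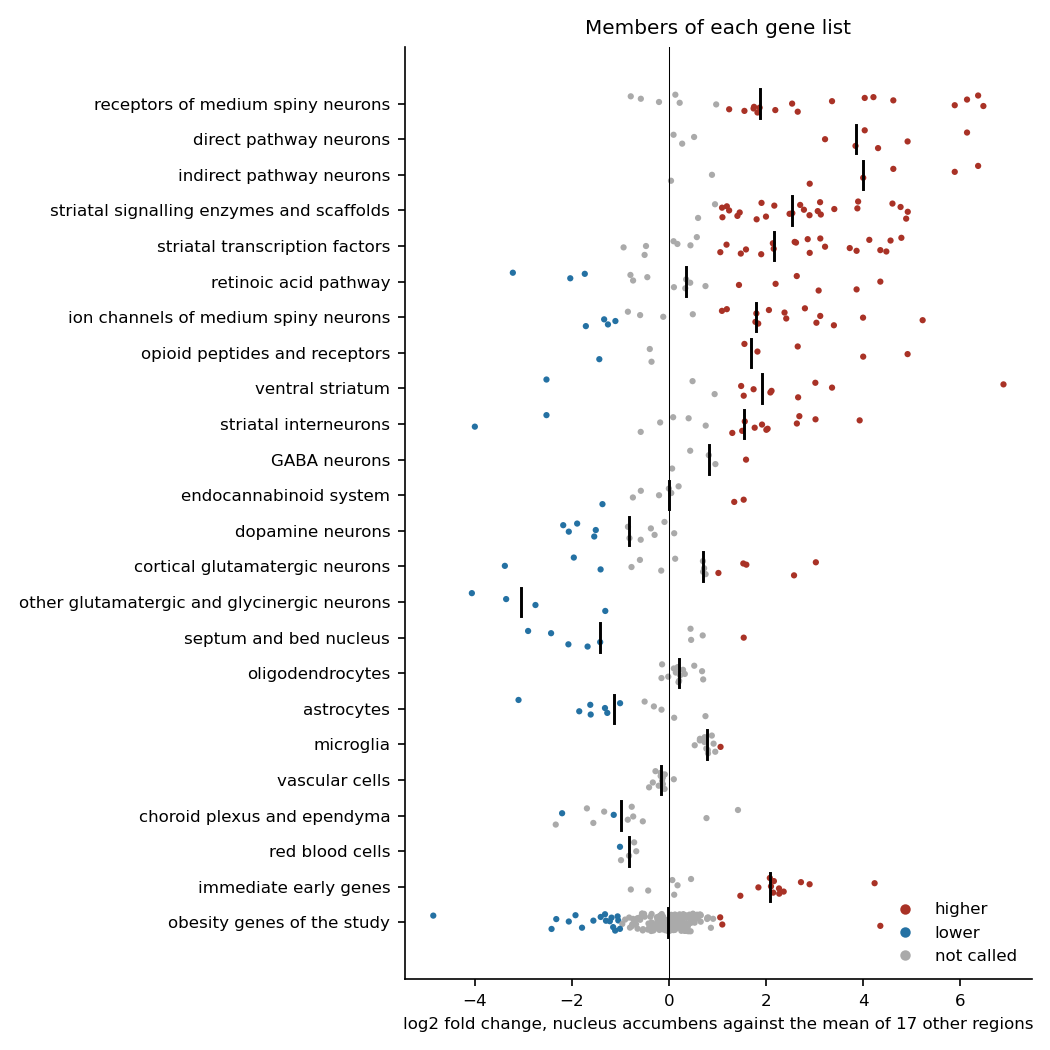
Log2 fold change of each tested gene (points), ACB minus the mean of the 17 other adult regions, by gene list, with a bar at the median of each list and colours for genes called higher, called lower or not called. The points of the signalling list all lie above 0 (median 2.54), those of oligodendrocyte genes lie near 0 (median 0.20), and those of the glutamatergic and glycinergic list lie below 0 (median -3.05).

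Interneurons make up a small share of striatal neurons and include large cholinergic cells and GABA cells with somatostatin, parvalbumin or other peptides. Of their markers, 11 of 18 were higher, 2 were lower, and the median was 1.54. Lhx8, a transcription factor that cholinergic neurons of the forebrain need, had 20.3, 4.97 and 11.1 TPM, and the median of the other libraries was 0. It was above each region, but its lowest ACB value, in replicate 2, lay below LHA replicate 1 (6.09 TPM). Chat, the enzyme that makes acetylcholine, had 11.9, 9.21 and 8.62 TPM, and it was higher still in PB (32.6 ± 3.65 TPM, n = 3). The peptides Sst (531, 714 and 684 TPM) and Npy (219.7, 268 and 262 TPM) were called higher, with ENT and ARH above them. Pvalb, the marker of fast-spiking cells, was lower at 7.58, 7.93 and 5.92 TPM, against a median of 199 TPM and up to 1241 TPM in the cerebellum, where Purkinje cells hold it.

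Of the general machinery of GABA neurons, 1 of 5 genes was called higher, with a median of 0.82. At an unadjusted p under 0.05 in limma 4 were higher, a looser cutoff whose share of all genes tested is not given here. Gad2, an enzyme that makes GABA, had 247, 237 and 218 TPM, Gad1, its partner, 539, 536 and 527 TPM, and Slc32a1, which loads GABA into vesicles, had 220.4, 193 and 184 TPM. Gad2 was above every other library and was called higher (1.59), while Gad1 (0.82) and Slc32a1 (0.96) were not called, and UVU and LHA, which also hold many GABA neurons, had similar levels. Among the 9 endocannabinoid genes tested, 2 were higher, 1 was lower and the median was 0.00. The higher ones were Mgll, which breaks down an endocannabinoid (115, 172 and 149.5 TPM), and Gpr55, a lipid receptor (3.38, 1.83 and 2.105 TPM). Napepld, an enzyme that makes anandamide, was below every other adult library at 2.97, 2.36 and 3.57 TPM, with a lowest value elsewhere of 4.98 TPM.

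The genes lowest in ACB included genes known from other kinds of neurons. Cbln1, which granule cells of the cerebellum secrete to build synapses, had 2.73, 2.63 and 5.22 TPM, and the other libraries ran from 5.72 to 1159, with a median of 99.8 TPM. Adcyap1, the precursor of the neuropeptide PACAP, had 0.482, 0.703 and 0.728 TPM against 3.89 to 78.9 TPM (median 19.7 TPM) elsewhere. For both, each ACB library was below each of the 54 others, with log2 fold changes of -4.85 ± 0.24 (SE) and -4.11 ± 0.20 and limma adjusted p of 3.23e-21 and 2.75e-21. Vamp1, a vesicle fusion protein typical of fast synapses, had 30.2, 23.1 and 30.03 TPM against at least 37.1 TPM, and Hapln4, a link protein of the nets around fast-spiking neurons, had 8.62, 9.36 and 10.2 TPM against at least 26.3 TPM. The nearest values, in ENT, were not far above the ACB range for Vamp1, while NTS reached 801 TPM on average. The calcium sensor Cpne9 (-3.93), the transcription factor Nhlh2 (-2.998), Ctxn3 (-2.91), the sulfotransferase Chst8 (-2.82), Medag (-2.75) and Ucma (-2.72) completed the 10 most negative genes of this kind.

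Markers of cells that a punch of ACB could hold besides its own neurons were measured as whole lists. The 12 dopamine neuron genes, whose cell source was not tested, summed to 35.7, 73.6 and 43.3 TPM. The other libraries had a median of 109.7 and up to 2377 TPM in VTA replicate 3. Of these genes 8 were under 1 TPM in each ACB library, Foxa2 was listed at 0, and the most abundant was Ddc (18.8 TPM on average). Of the list, 5 genes were lower in limma, 3 in edgeR and 6 in DESeq2, with a median of -0.83 in limma. Slc6a3, the dopamine transporter, was among the 8, at 0.246, 0.322 and 0.396 TPM. Th, the enzyme that starts the synthesis of dopamine, is also on the interneuron list and had 10.4, 16.1 and 8.51 TPM. Nr4a2, also an immediate early gene, had 2.45, 37.4 and 11.6 TPM, and neither gene was called by limma, edgeR or DESeq2. The 4 genes of other glutamatergic and glycinergic neurons were all lower, with a median of -3.05. Slc17a6, the glutamate transporter of subcortical neurons, had 4.83, 2.82 and 3.76 TPM against a median of 93.4 TPM. For the neighbouring septum and bed nucleus, 5 of 9 genes were lower and 1 was higher (Tac2), and the sums of 57.9, 45.6 and 72.01 TPM were exceeded by 43 of the 54 other libraries. The highest sums, 645 to 1175 TPM, were those of CENT2, CUL4-5, UVU and FL in the cerebellum, whereas ACA, FRP, PB and VTA, at 45.6 to 88.5 TPM, were near ACB.

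Cortical glutamatergic markers depended on the library. Of the 16 genes, 5 were higher, 3 were lower and the median was 0.70, while edgeR and DESeq2 each called 8 higher and 3 lower. Compared only with libraries of its own batch, the median was -0.234 in replicate 1, 1.007 in replicate 2 and 0.861 in replicate 3. Tbr1 had 4.32, 31.1 and 32.9 TPM and Neurod6 had 2.06, 16.97 and 18.2 TPM. In both, as in Slc17a7, replicates 2 and 3 were several times above replicate 1, and all 3 were far below the 97.8 and 142 TPM of ACA. With replicate 1 alone, the log2 fold change of Neurod6 turned from 0.73 to -1.15. The part of cortical cells in the results was not tested, and the counts given above for replicate 1 alone leave out the libraries in which these markers were high. Emx2 differed from this pattern, with 16.6, 15.8 and 14.9 TPM in the 3 libraries, and Lamp5 (116, 91.2 and 81.2 TPM) was highest in replicate 1.

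Glial cells gave a mixed account. Of 12 astrocyte genes 7 were lower in limma, with a median of -1.14, and 6 were lower in edgeR and in DESeq2. The sums of 1859, 2024 and 1943 TPM for the 12 genes were exceeded by 48 of the 54 other libraries. Agt, the angiotensinogen gene, was lowest of these at 19.2, 8.17 and 10.4 TPM against a median of 150.3 TPM, and Gfap, at 28.7, 46.02 and 39.04 TPM, was lower by more than 1 on the log2 scale. Slc1a2, the main astrocyte glutamate transporter, had a positive log2 fold change without being called (0.75). Of the 14 oligodendrocyte genes 0 were called by limma, edgeR or DESeq2, although 3 were higher at an unadjusted p under 0.05 in limma. The median of this list was 0.20, and its sums of 4874, 6087 and 4950 TPM were near the median of 4602 TPM in the other libraries. Opalin, a myelin protein, had the largest difference with 30.4, 27.6 and 29.6 TPM and a log2 fold change of 0.71 (limma adjusted p of 0.00315). All 12 microglial genes had positive log2 fold changes, with a median of 0.79, but only P2ry12 (1.06) passed the threshold on size and was called. All 12 were higher at an unadjusted p under 0.05 in limma. That cutoff is loose, since by it 42 of the 185 obesity genes tested were higher and 59 lower. Of the 12 vascular genes 0 were called by limma, edgeR or DESeq2 and 2 were lower at an unadjusted p under 0.05 in limma, with a median of -0.15 and sums of 326, 338 and 317 TPM against a median of 397 TPM.

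Choroid plexus and ependymal genes summed to 42.2, 35.7 and 64.3 TPM in ACB, against a median of 82.5 TPM and up to 13090 TPM in CBN replicate 1, and Folr1 was listed at 0. Of the 12 genes 2 were called lower, Folr1 and Foxj1, and the median was -0.99. With batch as a term Folr1 was no longer called, and Clic6, a chloride channel, was called higher (1.65). Of the same list, edgeR called 1 gene higher and 1 lower, and DESeq2 called 1 higher and 2 lower. The 5 red blood cell genes summed to 679.8, 758 and 923 TPM against a median of 1293 TPM, and limma called Hba-a1 lower (-1.01), close to the threshold, where edgeR and DESeq2 also called Hbb-bt. The reads of Hba-a1 cannot be told apart fully from those of its near-identical copy Hba-a2. The median of this list was -0.82, and 40 of the 54 other libraries exceeded the ACB sums.

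**Figure D5:**
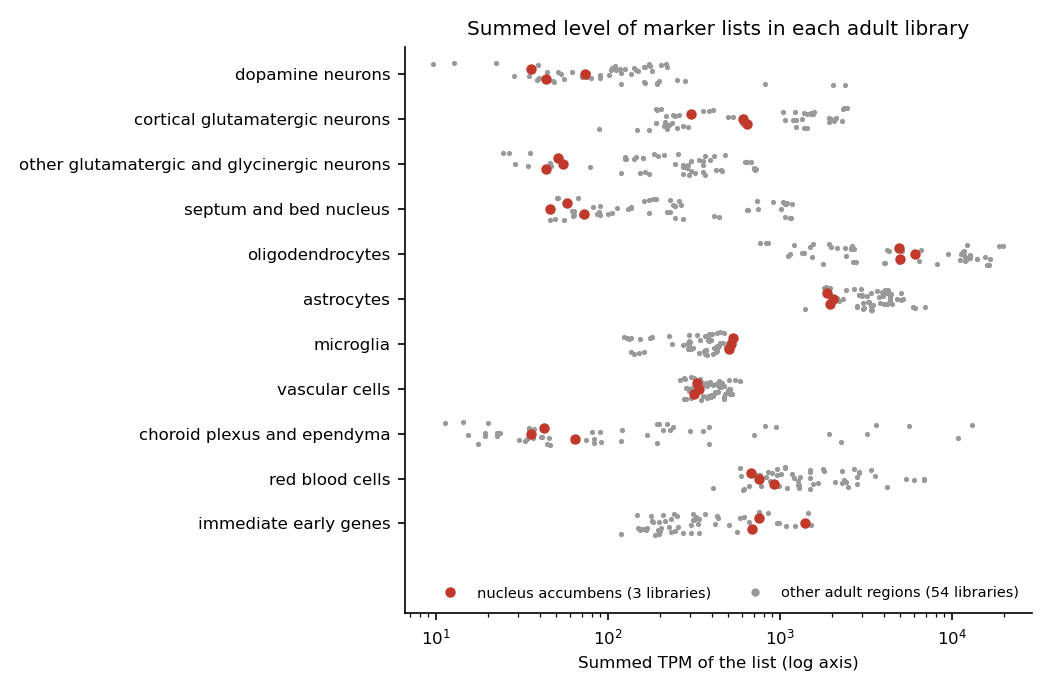
Summed TPM (log axis) of each marker list in every adult library, 1 point per library, with the 3 ACB libraries in red. The dopamine neuron and septum sums of ACB lie in the lower part of the range, microglial sums at the top (501.8 to 532 TPM), and cortical sums fall between the extremes with replicate 1 lowest.

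Immediate early genes were higher in ACB for 12 of 18, with a median log2 fold change of 2.09. Egr3, a transcription factor that activity induces, had 73.7, 80.9 and 45.1 TPM, and the median of the other libraries was 1.36 TPM. Arc, a regulator of synaptic strength, had 73.8, 196 and 70.3 TPM, and Nr4a1, a nuclear receptor, 66.9, 165 and 46.5 TPM. Replicate 2 was the highest ACB library for all 3 genes and the highest cortical mean was above the ACB mean for each, with 119 ± 3.31 TPM of Egr3 in ACA. Homer1, which anchors glutamate receptors and has an activity-induced form, varied less (139, 157 and 129 TPM). Fos itself (22.1, 63.8 and 24.99 TPM) was not called and lay within the range of 2.504 to 123 TPM elsewhere. The sums of these genes differed between batches in other regions too. In batch 3, that of ACB replicate 2, the library had the highest sum of its region in 7 of 13 other regions, and in batch 2 in 9 of 14, but in batch 4 in 1 of 14. With batch as a term 12 of 18 genes were again called higher, with a median of 1.997, and compared within batches 2, 3 and 4 the medians were 1.61, 2.26 and 1.64. The cause of the differences between batches was not tested.

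The study assembled 190 genes associated with obesity, and 185 of them were tested. In limma 3 were higher in ACB and 17 were lower, with a median of -0.01, so the share called higher (1.62%) was below that of all genes tested (5.36%) and the share called lower (9.19%) was above (4.33%). edgeR called 5 higher and 17 lower, and DESeq2 called 5 higher and 20 lower. Both tools also called more of all genes lower than limma did, 1093 of 17351 in edgeR and 1200 of 17348 in DESeq2. Their calls higher were 1297 and 1210. With batch as a term 3 were higher and 15 lower, since Sema3b and Tcf7l2, with limma log2 fold changes of -1.15 and -1.01, went to -0.98 and -0.95 and were no longer called. edgeR and DESeq2 called Sema3b lower, with -2.08 and -2.11, and did not call Tcf7l2. The higher ones were Rarb, described above, Plxna2, a receptor for axon guidance cues (47.9, 45.1 and 42.95 TPM, log2 fold change 1.10), and Ets2, a transcription factor (94.4, 84.1 and 91.1 TPM, 1.06). The lower ones included Cbln1, the growth factor Bdnf and the leptin receptor Lepr. Bdnf, which the striatum is known to receive as protein from cortical neurons, had 0.326, 2.2 and 2.47 TPM against 1.61 to 24.5 TPM (median 6.88 TPM). Replicate 1 was again the low one, and 4 of the 54 other libraries lay below the highest ACB value. Lepr had 0.953, 0.264 and 1.09 TPM against up to 10.5 TPM in ARH replicate 2. Sim1 and Olig3 were listed at 0 in each ACB library.

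Some genes varied widely between the 3 ACB libraries. Over the 11731 genes with a mean of at least 5 TPM in ACB, the median range on the log2 scale was 0.253, and 394 genes had a range over 1. Of these 245 are protein coding, among them Slc17a7 (3.61) and Nr4a2 (3.68). The 10 widest had ranges from 5.94 to 9.79, and 6 of them are annotated as pseudogenes while 4 have names that the annotation used here does not hold. Gm12338 had 443, 381 and 2.48e-05 TPM, Rpl30-ps9 had 99.2, 0.0186 and 1.57e-05 TPM and Gm8430 had 45.8, 82.9 and 0.000321 TPM. Each of these was high in some ACB libraries and near 0 in others, and the same held between libraries of other regions, where Gm12338 ran from 0 to 745, with a median of 294 TPM. Gm8430 was the only one of the 10 called, as higher, and 14 other libraries were above its lowest ACB value. Pseudogenes can share much of their sequence with other genes, so the reads given to the 6 are uncertain. The cause of the wide ranges was not tested. The remaining genes of the 10 widest were Gm10221, Gm6265, Gm11852, Gm9174, AC161829.1, AC127349.1 and AC119928.1.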

How the data were processed

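Bulk RNA was sequenced from tissue punches of 18 adult brain regions, embryonic brain and stem cells, 70 libraries in all. The study states that raw sequence data were turned into FASTQ files with CASAVA 1.8.2 and that reads were assigned to Ensembl transcripts of GRCm38 with kallisto. The deposited gene table holds TPM, for which the authors added up transcript values gene by gene. The deposited transcript tables hold the estimated count and TPM per transcript, and the authors' estimated counts were summed here per gene. Of 109282 transcripts, 107987 matched a gene (98.81%), and for 370 genes the matched transcript TPM differed from the gene table. Adult libraries held 13409041 to 20647884 estimated counts. Gene positions come from the GENCODE annotation of GRCm38. The labels name no batch per library. The study lists batch and number of mice for each sample by region, and these were matched to libraries by the order of the label numbers, which run in a separate stretch for each of the 5 adult batches.

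Adult libraries were analysed as log2(TPM + 0.5) for genes with at least 1 TPM in at least 2 of the 57. limma 3.58.1 (R 4.3.3) was fitted with 18 region means and a trend in the variance, and ACB was compared with the mean of the other 17 regions, weighted equally, by its two-sided moderated test with Benjamini-Hochberg adjustment over all genes tested. Calls needed an adjusted p under 0.05 and a log2 fold change beyond 1. For the comparison with each region, the largest of 17 one-sided p-values was adjusted over all genes, and the smallest of the 17 log2 fold changes had to be above 1. Tables were made with Python 3.11.15, pandas 2.3.3, numpy 2.4.6 and scipy 1.17.1. The procedure was tested on simulated data in which unchanged genes were alike in the 18 regions and libraries were independent. That test does not cover regions that differ from each other or share mice.

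Named genes follow a rule set before the deposited files were opened, with earlier results of these data known: Drd1, Drd2 and Adora2a; the 15 largest log2 fold changes among genes called higher and above every other adult library; the 10 most negative among genes called lower and below every other; the 10 most abundant of those above each region; the 10 widest ranges among the ACB libraries at a mean of at least 5 TPM; and list members with large fold changes or described roles. Some genes that meet these rules are not reported here. The ACB libraries and the gene lists were chosen with the same knowledge. The lists were those of medium spiny neuron receptors, direct and indirect pathways, signalling, transcription factors, retinoic acid, ion channels, opioids, ventral striatum, interneurons, GABA neurons, endocannabinoids, other cell types, immediate early genes and the obesity genes of the study.

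Alternatives were pseudocounts of 0.1 and 1, other filters, edgeR 4.0.16 and DESeq2 1.42.0 on estimated counts rounded to whole numbers, libraries centred on their median, TPM without mitochondrially encoded genes, other weights, 2 groups in the fit, all 70 libraries in the fit, no cortical regions, a block for the replicate number, and each library left out in turn. ACB replicate 1 as the only ACB library and batch as a term in the fit were added after seeing the data. Bulk samples pool cells, so a change within a cell type was not measured.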

Additional observations from a re-analysis of the deposited data

Results flagged for a closer look

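The embryonic and stem cell libraries entered only the alternative fit of all 70 libraries, and most embryonic groups held the marker genes above the stem cell libraries by a wide margin. Their groups are labelled F (1 library), H (3), M (2) and THy-PHy (3). In the 4 stem cell libraries the highest values were 0.0323 TPM of Drd1, 0.0952 TPM of Drd2 and 0.628 TPM of Adora2a. Drd1 had 1.3 TPM in the F library, and the lowest library had 0.692 TPM in M, 0.691 TPM in THy-PHy and 0.0906 TPM in H. For Drd2 the lowest library of each group had 1.83 TPM in F, 2.06 TPM in H, 3.17 TPM in M and 3.95 TPM in THy-PHy. The lowest values of Adora2a were 5.33 TPM in F, 3.46 TPM in M and 2.39 TPM in THy-PHy, but 0.776 TPM in H, near the stem cells. Differences between embryonic groups were not tested.

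Among adult regions with 4 libraries, 3 values stood far from the other libraries of their region. Adora2a was at 2.32 TPM in DMH replicate 4, and the next DMH library had 1.58 TPM. DMH replicates are numbered here as in the labels, since the sample titles number them differently. Drd1 was at 0.369 TPM in FL replicate 1, against 0.137 TPM in the next FL library. Mitochondrially encoded genes took 12.4% of TPM in NTS replicate 4, against 8.96% in the next NTS library. These came from 20 combinations of region and measure, and chance gives about 1 in 20. The cause was not tested in any of the 3 cases, and both gene values lie far below those of ACB.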

How the results depend on the processing

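The 5 counts of the comparison were 1022 genes higher, 827 lower, 349 above every other library, 70 below every other and 114 above each region. With 2 groups in the fit, 630 genes were higher and 290 lower, since differences between the 17 regions then count as noise. The comparison with each region cannot be computed in that fit. Without the 3 cortical regions, 678 genes were above every remaining library, 234 below every one and 300 above each region, since fewer libraries and regions had to be exceeded. With only ACB replicate 1, chosen after seeing the data, 618 were above and 222 below every other library, of which 322 and 70 were also in the full comparison. In that setting Neurod6 reversed to -1.15, and the cause was not tested.

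Without 1 ACB library, genes higher ranged from 1023 to 1087, lower from 758 to 914, above every other library from 377 to 427, below every other from 82 to 117 and above each region from 100 to 121. Without 1 other adult library these ranges were 1000 to 1041, 811 to 856, 349 to 358, 70 to 117 and 103 to 116. The count of 117 was reached without ACB replicate 3 and without VTA replicate 1. The counts stayed within 1.5 times their main value under the other alternatives. With batch as a term, added after seeing the data, they were 1037, 811, 348, 70 and 116, and with the replicate block 1026 genes were higher and 833 lower. edgeR gave 1297 higher and 1093 lower, and DESeq2 gave 1210 and 1200.

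Of 495 named genes and list members, 414 kept their side of the threshold with 2 groups in the fit and 81 were no longer called. With batch as a term 491 kept it, 3 were no longer called and 1 was newly called. With only ACB replicate 1, of 493 genes 459 kept it, 21 were no longer called, 11 were newly called and 2 reversed. The median log2 fold change over all genes moved by less than 0.1 in each setting. Depth was alike between ACB and other libraries. With 3 ACB libraries, 1 from a lone mouse and 2 pooled, small differences and differences between mice are beyond the data.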

Other observations

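The same replicate number did not mean the same batch, since ACB replicates 1, 2 and 3 belong to batches 2, 3 and 4 and the first library of several other regions to batch 1. After region means were removed, 49 pairs of an ACB library with another adult library of the same number had a median correlation of 0.007 across genes. For 113 pairs of an ACB library with one of a different number it was -0.004. For the batches, 41 pairs of an ACB library with a library of the same batch had 0.009 and 121 pairs from different batches had -0.005, while over all regions 357 pairs of the same batch had 0.021 and 1174 pairs from different batches had -0.005. Other genes that were lowest in ACB replicate 1 included Cck and Prss12, both highest in ACA among the other regions: Cck had 21, 203 and 214 TPM and Prss12 had 1.76, 22.2 and 20.3 TPM in replicates 1, 2 and 3, while the cell cycle gene Mki67 had 1.18, 2.88 and 3.15 TPM. These genes were chosen after their values were seen.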
